A study of Mus musculus with 4 samples.

Results

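The genes examined here encode 10 microtubule-associated proteins of neurons and their relatives, *Mapt*, *Map2*, *Map4*, *Map1a*, *Map1b*, *Map6*, *Dcx*, *Dclk1*, *Dclk2* and *Crmp1*. They were picked by name from the read count table of E13.5 mouse retinas and make up 10 of its 24062 genes, and all 10 had enough reads to be tested. Against wildtype, *Nrf1* f/f;Six3-Cre retinas had 7 of the 10 called lower and none higher, where 8.04% of all tested genes were called lower and 12.8% higher. The decrease was largest in *Mapt*, *Dcx* and *Crmp1*, which were left at 19.6%, 33.4% and 34.6% of the wildtype mean. *Map4* was left at 91.4%, and its genotypes overlapped.

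Microtubules are hollow tubes of tubulin that fill the axon and dendrites of a neuron. Microtubule-associated proteins bind along their wall, slow their disassembly, space them into bundles and set which motors can travel on them. In the embryonic retina, retinal ganglion cells (RGCs) are the first neurons to form, and they send their axons out through the optic nerve while most other cells are still dividing progenitors. Tau, MAP1B, doublecortin and the collapsin response mediator proteins (CRMPs) are well known from young neurons that migrate and grow an axon.

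There were 2 libraries of each genotype, called WT and Nrf1-CKO in the labels, all from E13.5 retinas of mice of mixed C57BL/6 and 129 background. According to the study's methods, each library was made from pooled retinas of several littermates, both sexes were used, and the mutant carries a floxed *Nrf1* allele in which Cre removes a single exon. The Six3-Cre transgene deletes *Nrf1* in proliferating retinal progenitor cells and starts in the central retina, and the sources used here do not say whether the wildtype embryos carried Cre. *Nrf1* had 9052 and 7789 reads in wildtype against 8594 and 8284 in mutant libraries, but a count over the whole gene includes all the exons that remain, so it does not check the genotype.

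The libraries held 74577660 to 85933945 reads counted on genes. As a check of the tissue, the summed level of 11 progenitor markers was 5257 to 5850 CPM in the 4 libraries, where CPM are reads scaled to a common library size. That of 13 RGC markers was 1534 and 1744 CPM in wildtype and 633 and 479 CPM in mutant replicates 1 and 2. Of the 13, 11 were called lower, and *Thy1* was called higher at 1 and 1 reads in wildtype against 11 and 25 in mutant libraries. Markers of tissues and cells other than retinal neurons and progenitors also differed between the genotypes. All 10 lens markers were called higher, with sums of 142 and 402 CPM in wildtype and 8147 and 3415 CPM in mutant replicates 1 and 2. All 8 macrophage and microglia markers were called higher too, and the sum of 8 pigment epithelium markers was 168 to 230 CPM in wildtype and 418 to 446 CPM in mutant libraries, with *Rpe65* at 0 and 4 reads in wildtype and 0 in both mutant libraries. Among markers of neurons outside the retina, *Hoxb4* had 0 reads in all libraries. *Hoxc5* had 0 and 0 reads in wildtype against 9 and 2 in mutant libraries, and *Slc6a4* had 34 to 46 reads in each library.

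The CPM include edgeR's TMM factors, which correct for differences in composition between libraries. The quasi-likelihood test of edgeR was run over 15762 genes with Benjamini-Hochberg adjustment, and SE is the standard error of a log2 fold change. Genes changed at least 1.4-fold with an adjusted p no higher than 0.2, the thresholds of the study, were called. Both mutant libraries lay below both wildtype libraries in 31.6% of all tested genes and above them in 30.9%. Of the 10 microtubule-associated protein genes, 7 were called lower, and in 9 the mutant libraries lay below the wildtype libraries and in none above. All 7 also passed an adjusted p of 0.05, as did 6.59% of all tested genes in the lower direction. None was higher by edgeR at an unadjusted p under 0.05, and DESeq2 also called none higher. The median log2 fold change of the 10 genes was -0.82, against 0.00073 for all tested genes. Together the 10 genes took 4360 and 4451 CPM in wildtype against 2586 and 2031 CPM in mutant libraries. In RNA of whole retinas, a loss of RGCs and a loss of the transcript within each RGC cannot be told apart. The study itself lists *Mapt*, *Dcx* and *Crmp1* as decreased in these libraries, so the calls of these 3 are not independent evidence.

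**Figure D1:**
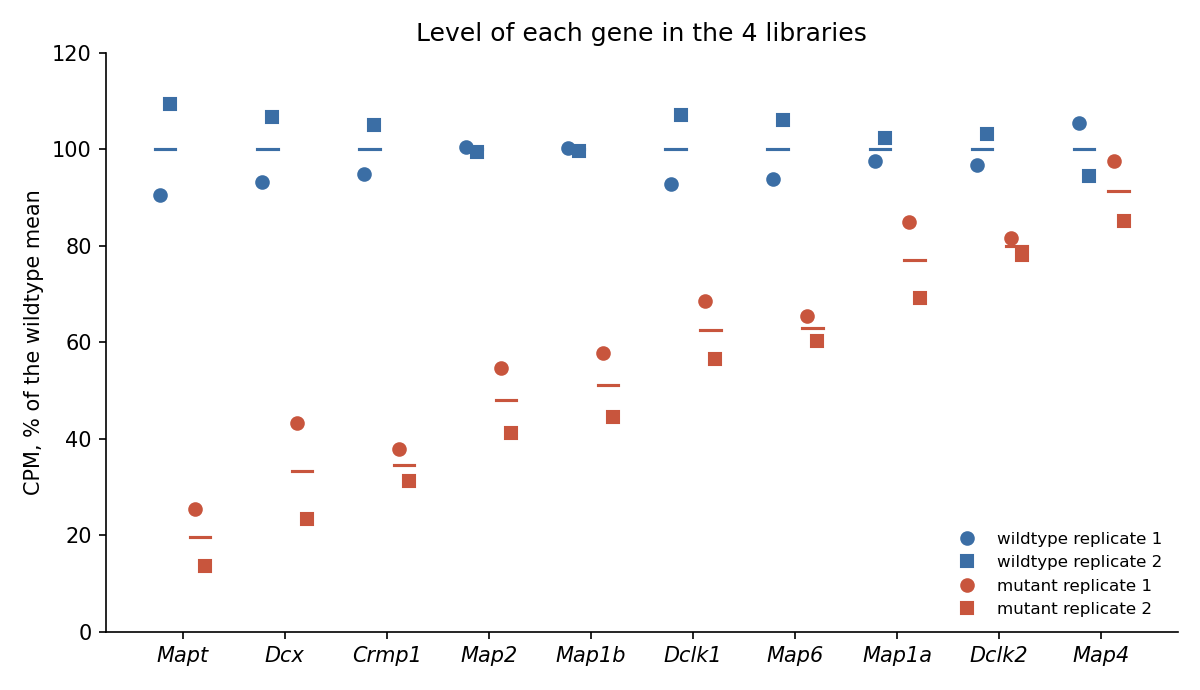
CPM of the 10 genes in each library, as a percentage of the wildtype mean, ordered by log2 fold change. Points are libraries (circles replicate 1, squares replicate 2) and short lines are means of 2. Mutant levels run from 13.7% for *Mapt* in mutant replicate 2 to 97.7% for *Map4* in mutant replicate 1, and mutant replicate 2 lies below mutant replicate 1 for each gene.

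*Mapt*, *Map2* and *Map4* encode related proteins that bind microtubules through the same kind of repeats near their C terminus. Tau, the product of *Mapt*, is enriched in axons. *Mapt*, which lies at 104231390 to 104332090 on chromosome 11 (GRCm38, as for all genes here), had 10195 and 10449 reads in wildtype against 2734 and 1457 in mutant libraries. Both mutant libraries lay far below both wildtype libraries, at 25.6% and 13.7% of the wildtype mean. The log2 fold change was -2.35 (SE 0.24, edgeR adjusted p = 0.000294), and it was the lowest of the 10 genes. Of all tested genes, 0.470% had a lower one.

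MAP2, the classical microtubule-associated protein of dendrites, is already made in immature neurons. *Map2*, on chromosome 1 from 66175273 to 66442583, had 25762 and 21593 reads in wildtype against 13323 and 9981 in mutant libraries. The wildtype libraries were nearly level after scaling, at 294 and 291 CPM, and the mutant libraries had 160 and 121 CPM. Its log2 fold change was -1.06 (SE 0.12, edgeR adjusted p = 0.000496). MAP4 is the member of this family that is made in most cell types, dividing cells included. *Map4*, on chromosome 9 from 109931460 to 110083955, had 15416 and 11720 reads in wildtype against 13551 and 11766 in mutant libraries. After scaling these were 176 and 158 CPM in wildtype against 163 and 142 CPM in mutant libraries, so the genotypes overlapped. The log2 fold change of -0.13 (SE 0.09, edgeR adjusted p = 0.376) had a 95% interval from -0.34 to 0.08.

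The MAP1 proteins are large and are cut into a heavy and a light chain after translation. MAP1B appears early in growing axons, and MAP1A is the form that prevails in mature neurons. *Map1b*, on chromosome 13 from 99421446 to 99516540, had the most reads of the 10 genes, with 240601 and 202175 reads in wildtype against 131547 and 101071 in mutant libraries. It held 2747 and 2726 CPM in wildtype against 1583 and 1222 CPM in mutant libraries, with no overlap. Its log2 fold change was -0.96 (SE 0.12, edgeR adjusted p = 0.000573). Of the summed CPM of the 10 genes, *Map1b* was therefore by far the largest contributor in both genotypes.

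*Map1a*, on chromosome 2 from 121289600 to 121310832, had 212 and 223 CPM in wildtype against 185 and 150.5 CPM in mutant libraries. Both mutant libraries lay below the wildtype libraries, but the log2 fold change of -0.38 (SE 0.10, edgeR adjusted p = 0.0309) was smaller than 1.4-fold and the gene was not called. This value depended on the mutant library. It was -0.53 without mutant replicate 1, when *Map1a* was called lower, and -0.24 without mutant replicate 2 (edgeR adjusted p = 0.116). Without wildtype replicates 1 and 2 in turn it was -0.41 and -0.34, with edgeR adjusted p of 0.0998 and 0.177. In the annotation, 2.24% of its exon bases are shared with *Ppip5k1* on the opposite strand, and whether the counting used strand is not given in the sources used here.

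MAP6, also known as STOP, protects microtubules of neurons against cold and drugs. *Map6*, on chromosome 7 from 99267447 to 99337137, had 11374 and 10907 reads in wildtype against 7544 and 6916 in mutant libraries. The mutant libraries were close to each other, at 65.6% and 60.4% of the wildtype mean, and both were below the wildtype libraries. Its log2 fold change was -0.67 (SE 0.09, edgeR adjusted p = 0.000997). Its 95% interval, -0.87 to -0.46, included a 1.4-fold decrease.

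Doublecortin binds between the protofilaments of the microtubule wall and is a standard marker of newborn neurons. *Dcx*, on the X chromosome from 143855842 to 143933311, had 13200 and 12778 reads in wildtype against 5823 and 3120 in mutant libraries. These were 151 and 172 CPM against 70.1 and 37.7 CPM, so the mutant libraries were well below the wildtype libraries but also differed from each other by 1.86-fold. The log2 fold change was -1.58 (SE 0.23, edgeR adjusted p = 0.00158), and leaving out single libraries moved it between -2.10 and -1.21.

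The doublecortin-like kinases join doublecortin domains to a protein kinase domain. *Dclk1*, on chromosome 3 from 55242364 to 55539068, had 12476 and 12187 reads in wildtype against 8740 and 7183 in mutant libraries. Its levels of 142 and 164 CPM in wildtype against 105 and 86.8 CPM in mutant libraries did not overlap. The log2 fold change was -0.68 (SE 0.11, edgeR adjusted p = 0.00265), with a 95% interval of -0.93 to -0.42 that also included a 1.4-fold decrease. *Dclk2*, on the same chromosome from 86786151 to 86920852, had 87.0 and 92.8 CPM in wildtype against 73.4 and 70.3 CPM in mutant libraries. The mutant libraries were both lower, but the log2 fold change of -0.32 (SE 0.08, edgeR adjusted p = 0.0169, 95% interval -0.50 to -0.15) was smaller than 1.4-fold and *Dclk2* was not called. The annotation holds 15 transcripts of *Dclk1*, 413 to 7962 bases long, and reads counted per gene do not tell them apart.

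CRMP1 belongs to a family of proteins that bind tubulin and carry the semaphorin signal in growth cones. *Crmp1*, on chromosome 5 from 37241940 to 37292133, had 26552 and 24890 reads in wildtype against 10083 and 8248 in mutant libraries. After scaling, the mutant libraries held 121 and 99.7 CPM, far below the 303 and 336 CPM of the wildtype libraries. With a log2 fold change of -1.53 and an SE of 0.11 it had the lowest adjusted p of the 10 genes (edgeR adjusted p = 9.9e-05).

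**Figure D2:**
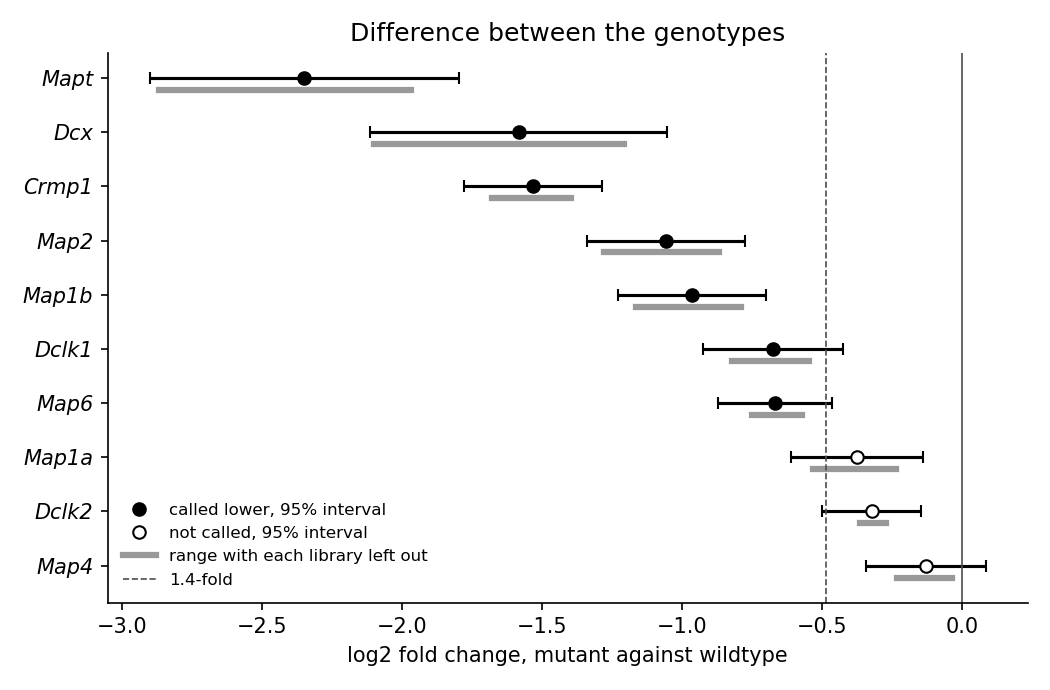
Log2 fold change of each gene, mutant against wildtype, with its 95% interval from edgeR. Filled points are genes called lower, grey bars span the values with each library left out in turn, and the dashed line marks a 1.4-fold decrease. The 7 called genes lie between -2.35 and -0.67, and the interval of *Map4* includes 0.

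The levels of different genes can be compared only per length. In CPM per kilobase of merged exons, *Map1b* had 173 and *Crmp1* 45.3 in wildtype, and the other genes lay between 8.52 for *Dclk2* and 17.9 for *Map1a*. In mutant retinas, *Map1b* and *Crmp1* were still the first and second by their means, at 88.5 and 15.7 CPM per kilobase. The mutant libraries of *Crmp1*, at 17.2 and 14.1, overlapped those of *Map1a*, at 15.2 and 12.4. *Mapt* went from 15.5 and 18.7 CPM per kilobase, the fifth of the 10, to 4.37 and 2.34, the last by its mean. The mutant libraries of *Dcx*, at 5.54 and 2.98, overlapped those of *Mapt*, so the last place is not firm. In the wildtype, *Map1a*, *Map2* and *Mapt*, with means of 17.9, 17.8 and 17.1 CPM per kilobase, did not differ beyond the spread of *Mapt*. The libraries of *Mapt* and *Map6* overlapped too, as did those of *Map4* and *Dclk1*. Merged exons count sequence of every annotated transcript. Per kilobase of the longest transcript, *Map1b* and *Crmp1* were again the highest in wildtype, at 232 and 105, but *Map2*, at 46.8, came next, so the order below the first pair depends on the length used.

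**Figure D3:**
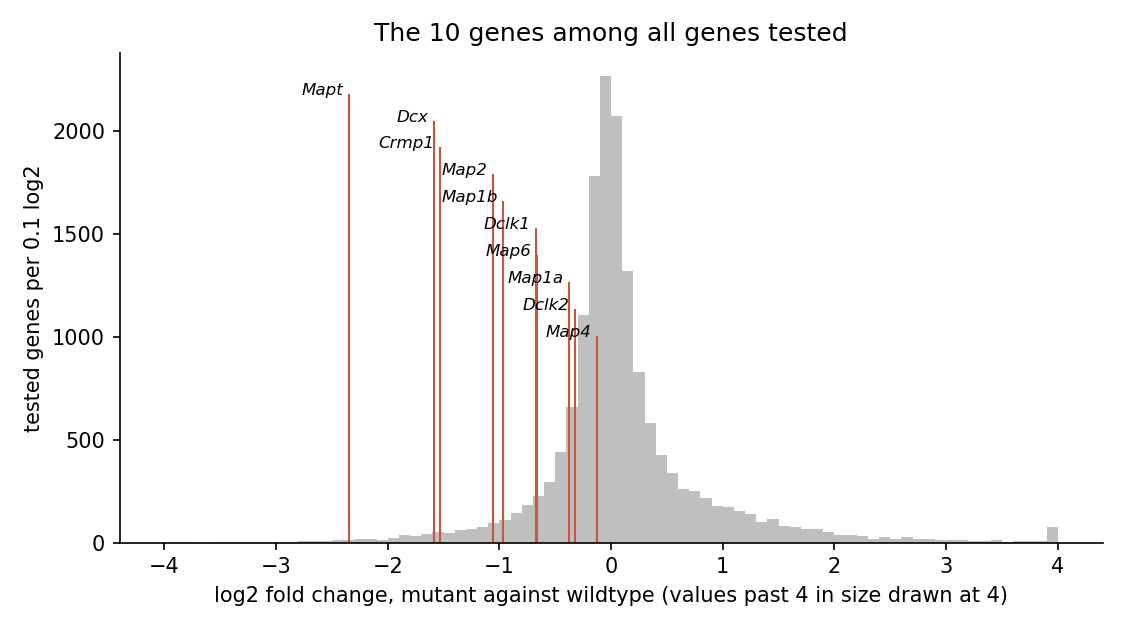
Histogram of the log2 fold changes of all 15762 tested genes in steps of 0.1, with the 10 genes as vertical lines whose heights only separate the labels. All 10 lie below 0, from *Mapt* at -2.35 to *Map4* at -0.13.

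Related genes in the same library were compared by the ratio of their reads, which needs no scaling between libraries. In wildtype retinas there were 0.661 and 0.892 *Mapt* reads for each *Map4* read, and in mutant retinas 0.202 and 0.124. The mutant ratios of tau to MAP4 transcripts were lower, with a log2 difference of -2.28. For *Map2* against *Map4* the ratio was 1.67 and 1.84 in wildtype and 0.983 and 0.848 in mutant libraries, a log2 difference of -0.94. *Mapt* against *Map2* gave 0.396 and 0.484 in wildtype and 0.205 and 0.146 in mutant libraries. Of these 3 relatives, the mutant libraries thus held less *Mapt* for their *Map2*, and less of both for their *Map4*, than the wildtype libraries.

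*Map1b* reads outnumbered *Map1a* reads by 12.9 and 12.2 in wildtype and by 8.55 and 8.12 in mutant libraries, a log2 difference of -0.59. *Dcx* and *Dclk1* had nearly equal reads in wildtype, with ratios of 1.06 and 1.05, and ratios of 0.666 and 0.434 in mutant libraries. The size of that log2 difference, -0.97, differed with the mutant library, from -1.28 without mutant replicate 1 to -0.66 without mutant replicate 2. *Dcx* against *Dclk2* went from 1.73 and 1.86 to 0.955 and 0.536. The pair of kinases differed least, with *Dclk1* to *Dclk2* ratios of 1.64 and 1.77 in wildtype and 1.43 and 1.23 in mutant libraries, a log2 difference of -0.36. *Crmp1* was compared with *Dpysl2*, the gene of CRMP2, and had 0.420 and 0.449 reads for each of its reads in wildtype against 0.245 and 0.220 in mutant libraries. In all 8 pairs compared, both mutant libraries lay below both wildtype libraries. In each pair the gene with the larger decrease stands first, and several pairs share a gene. The common direction therefore follows from the order of the genes and is not 8 separate results. With 2 libraries per genotype, the exact two-sided permutation test gave p = 0.333 for each pair, the smallest value it can give, so none of these differences could pass a threshold.

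**Figure D4:**
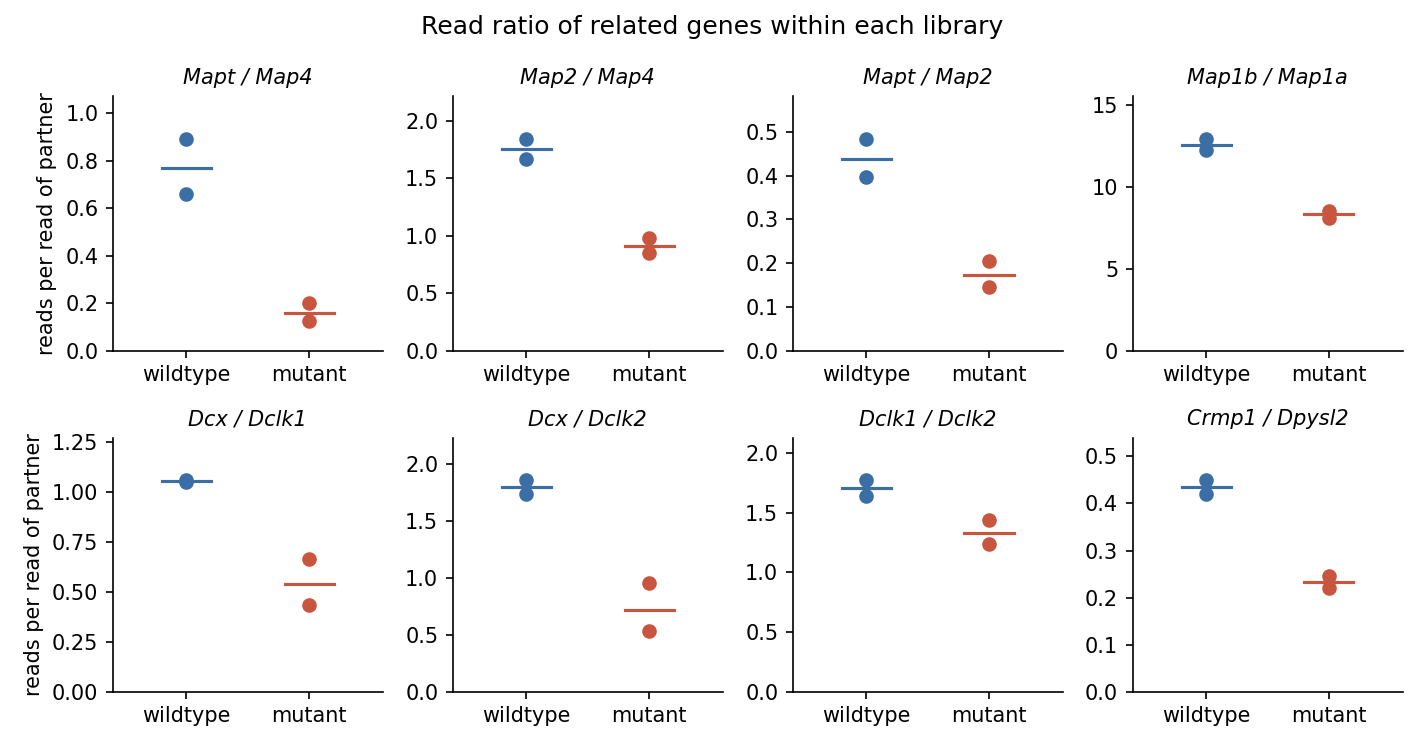
Reads of the first gene for each read of the second in the same library, for the 8 pairs of related genes. In each pair the more decreased gene is first. Points are libraries and lines are geometric means of 2. Each axis starts at 0, and the mutant points lie below the wildtype points in each panel, furthest for *Mapt* to *Map4*.

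For each of the 10 genes, mutant replicate 2 was lower than mutant replicate 1 after scaling, while wildtype replicate 2 was lower than wildtype replicate 1 for 3 of them. The gap was widest for *Mapt* and *Dcx*, with 1.87 and 1.86 times as many CPM in mutant replicate 1, and narrowest for *Dclk2*, with 1.04. How many of all tested genes were also lower in mutant replicate 2 was not counted, so this order cannot be called particular to the 10. Over the 10 genes, the median log2 level against the wildtype mean was -0.70 in mutant replicate 1 and -0.99 in mutant replicate 2. The summed RGC markers were also lower in mutant replicate 2, at 633 and 479 CPM, as were the lens markers, at 8147 and 3415 CPM. Their part in the difference between the libraries was not tested. With the marker genes of lens, pigment epithelium, macrophages, endothelium, mesenchyme and blood left out of the scaling, the same 7 genes were called and the median was -0.82. This step changes only the scaling factors and takes no RNA of other tissues out of the libraries.

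The summed RGC markers in mutant libraries came to 0.339 of wildtype. Beside this, *Dcx* and *Crmp1* were at 33.4% and 34.6% of wildtype, *Mapt* was at 19.6%, and the other 7 genes were at 48.0% to 91.4%. Single RGC markers varied widely around their sum, which weighs genes with many reads most. Apart from *Thy1*, which was higher, they ranged from 8.89% of wildtype for *Pou4f3* to 73.0% for *Rbpms*. *Mapt*, *Dcx* and *Crmp1* lay within this range. The 11 progenitor markers came to 0.966 of wildtype in sum, and edgeR called none of them, with 2 at an unadjusted p under 0.05 and none called by DESeq2. The 6 photoreceptor precursor markers came to 0.872, with 2 called lower, and the 6 amacrine and horizontal cell markers to 1.08, with 3 called lower and 2 higher. The 5 ciliary margin markers came to 2.02 of wildtype, with 4 called higher. Called higher were also 4 of 6 endothelial markers, with 1 lower, and 4 of 7 markers of periocular mesenchyme, with sums at 1.02 and 1.43 of wildtype. The 3 tested markers of skeletal muscle were called higher by edgeR and 2 of them by DESeq2. The sum of this list was 2.71 and 1.02 CPM in wildtype against 18.0 and 3.87 CPM in mutant libraries, with mutant replicate 1 far above mutant replicate 2. The part of a change in cell composition in the levels of the 10 genes was not tested.

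The promoters of the 10 genes were read from RefSeq (GRCm38.p6), which gave 12 promoters for 8 genes, all but *Mapt* and *Map6*. Each covers 250 bases before and 50 after a start site. NRF1, the factor deleted here, binds a palindrome with several CG dinucleotides. Neither the NRF1 palindrome nor TGCGCA, a shorter motif that shares letters with the palindrome but is not contained in it, was found on either strand in any of the 12 windows, of which the 2 of *Dcx* overlap. Of 32851 promoters in all, 0.971% and 7.76% hold them, so that few or no matches in 12 windows is near the background. The E-box CANNTG, the site of proneural factors of the bHLH class, was found in 6 of the 12 windows, which belong to 5 genes, and in 72.3% of all promoters. A match of letters is not a bound site, and a missing match says nothing about binding elsewhere. For comparison, the 250 bases before the start are shown for *Dcx*, the most decreased gene with a promoter in the table, for *Map1b*, the gene with the highest level per length, and for the first of 2 promoters of *Map4*, whose genotypes overlapped, with CG dinucleotides in capitals.
Dcx (chrX:143933220-143933469, minus strand): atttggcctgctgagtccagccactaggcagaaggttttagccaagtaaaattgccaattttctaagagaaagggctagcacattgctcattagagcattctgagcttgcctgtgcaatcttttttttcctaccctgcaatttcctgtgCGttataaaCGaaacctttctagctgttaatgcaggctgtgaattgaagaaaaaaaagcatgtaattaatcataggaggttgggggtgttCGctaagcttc
Map1b (chr13:99516603-99516852, minus strand): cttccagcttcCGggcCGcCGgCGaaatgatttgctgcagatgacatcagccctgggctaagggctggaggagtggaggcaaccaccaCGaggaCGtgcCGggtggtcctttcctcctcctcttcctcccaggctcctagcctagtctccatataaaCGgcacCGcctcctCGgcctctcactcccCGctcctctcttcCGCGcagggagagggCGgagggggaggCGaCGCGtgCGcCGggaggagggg
Map4 (chr9:109931524-109931773, plus strand): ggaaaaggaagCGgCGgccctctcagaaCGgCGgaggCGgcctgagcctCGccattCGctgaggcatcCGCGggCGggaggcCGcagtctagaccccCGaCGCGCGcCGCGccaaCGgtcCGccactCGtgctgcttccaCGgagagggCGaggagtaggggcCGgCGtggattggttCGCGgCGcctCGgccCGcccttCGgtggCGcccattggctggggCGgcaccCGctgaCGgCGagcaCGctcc
The window of *Dcx* holds 3 CG dinucleotides and has a GC content of 41.6%, that of *Map1b* holds 19 with 66.4%, and the first of *Map4* holds 36 with 74.0%. The second window of *Map4* holds 4 with 43.6%, close to *Dcx*, so the windows do not set *Map4* apart from the decreased genes. The median over all promoters was 6 CG dinucleotides. Among the other genes called lower, *Map2* has 34, the 2 windows of *Crmp1* have 30 and 16, and the 2 windows of *Dclk1* have 4 each.

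Other genes of the microtubule system were taken from 7 lists, in which 86 genes besides the 10 were tested. Of these, 24 were called lower, 3 higher and 59 were not called, with a median log2 fold change of -0.15. Among all tested genes 8.04% were called lower. In the CRMP family all 4 relatives of *Crmp1* were called lower, *Dpysl2*, *Dpysl3*, *Dpysl4* and *Dpysl5*. *Dpysl4* had 15810 and 15104 reads in wildtype against 7275 and 7386 in mutant libraries, a log2 fold change of -1.12 (SE 0.08, edgeR adjusted p = 9.9e-05). *Dpysl3* had a log2 fold change of -1.11, *Dpysl5* of -0.78 and *Dpysl2*, which has more reads than *Dpysl4* or *Dpysl5*, of -0.63. The smallest decrease of the family was thus that of *Dpysl2*, and the largest that of *Crmp1*.

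In the doublecortin family, 4 tested genes besides *Dcx*, *Dclk1* and *Dclk2* had few reads. *Dclk3*, a further kinase of the family, was called lower with 111 and 91 reads in wildtype against 23 and 47 in mutant libraries (log2 fold change -1.56, SE 0.49, edgeR adjusted p = 0.04998), and *Dcdc2a*, *Dcdc2b* and *Rp1l1* were not called. Among 13 other structural microtubule proteins, *Mtus2*, *Trim46* and *Tppp3* were called lower, with log2 fold changes of -1.77, -1.03 and -0.94. TRIM46 bundles microtubules at the start of the axon, and the study lists *Mtus2* and *Trim46* as decreased in these libraries. *Map6d1*, with 118 and 47 reads in wildtype against 221 and 105 in mutant libraries, was called higher (edgeR adjusted p = 0.188) although its genotypes overlapped. The broadly made *Map7d1* and *Mtcl1* had log2 fold changes of -0.08 and 0.13 and were not called.

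The list of kinases linked to these proteins also holds *Cdk5r1* and *Cdk5r2*, which encode activators and not kinases. Of its 17 genes, activators included, 8 were called lower and none higher, by edgeR and by DESeq2. In edgeR, 12 had an unadjusted p under 0.05 in either direction. *Cdk5r1*, which encodes p35, the neuronal activator of the tau kinase CDK5, had 8562 and 7910 reads in wildtype against 3735 and 3213 in mutant libraries. Its log2 fold change was -1.29 (SE 0.09, edgeR adjusted p = 9.9e-05), while *Cdk5* itself was at -0.28 and was not called. *Cdk5r2*, the gene of the related activator p39, was called at -1.42 with 191 and 179 against 103 and 39 reads. *Mark1*, a kinase of the microtubule-binding repeats, was at -0.94 (edgeR adjusted p = 0.000225). *Gsk3a* and *Gsk3b*, at -0.14 and -0.11, were not called.

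Among 16 proteins of the plus and minus ends of microtubules, 5 genes were called lower. The largest of these changes were those of *Nav2* at -0.67 and *Mapre2*, which encodes the end-binding protein EB2, at -0.54. *Nav3*, *Camsap1* and *Camsap2*, also called lower, were level at -0.51. *Nav1*, a neuron navigator gene like *Nav2* and *Nav3*, was called higher, with 9410 and 7203 reads in wildtype against 16306 and 15275 in mutant libraries (log2 fold change 0.90, SE 0.08, edgeR adjusted p = 0.000211). Of 17 genes for severing and for modification of tubulin, *Ttll7*, *Ttll1* and *Agtpbp1* were called lower at -1.02, -0.99 and -0.57. TTLL7 and TTLL1 add glutamate chains to tubulin, and the product of *Agtpbp1* trims them. *Fign*, the gene of the severing protein fidgetin, was called higher at 0.57.

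Genes of proteins linked to the spindle of dividing cells were listed for comparison. None of 15 genes was called by edgeR or by DESeq2, and 1 had an unadjusted p under 0.05 in edgeR. Their log2 fold changes lay between -0.21 and 0.14, with a median of 0.00051. *Tpx2*, which starts microtubules at the spindle, had 328 CPM in wildtype and 330.2 CPM in mutant libraries on average. For *Prc1*, which bundles the midzone of the spindle, the averages were 231 and 212 CPM and the log2 fold change was -0.13. The difference between the spindle list and the 10 genes was not tested as such.

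**Figure D5:**
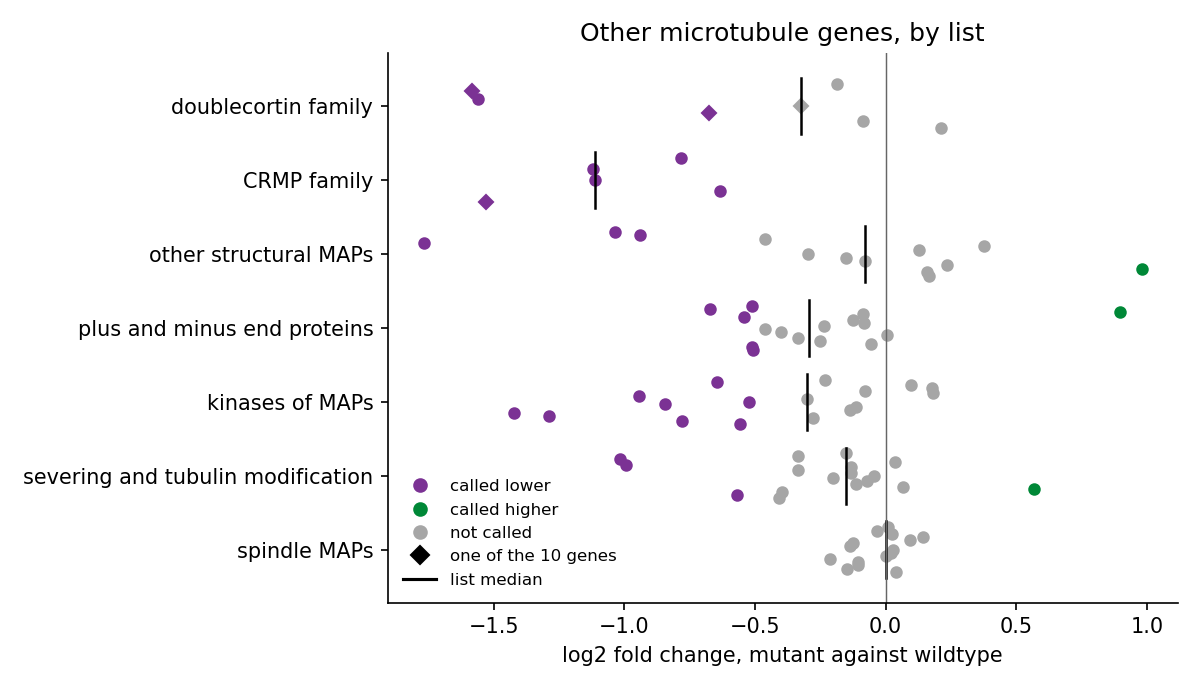
Log2 fold change of each tested gene of the 7 lists, mutant against wildtype, with diamonds for the genes among the 10 and vertical strokes for the list medians. All 5 CRMP genes lie below -0.6, and the 15 spindle genes lie between -0.21 and 0.14.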

How the data were processed

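RNA was measured in 4 libraries of E13.5 retinas. Per the study's methods and the submitters' processing notes, the authors aligned paired-end reads to mm10 with TopHat2 2.7.2, counted reads per gene with HTSeq and deposited the raw counts. A second deposited table holds normalized values on a log2 scale whose making is not given in the sources used here. The study ran Cuffdiff on the alignments, which were not analysed here, and the notes also name DESeq and limma without a role.

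Columns named Mut and Ctrl with a replicate number were matched to the labels by genotype and number. The 5 summary rows of HTSeq were left out of library sizes and tests, and they were 74.0% to 75.0% of all entries. Reads that do not map uniquely, 54.6% to 58.0% of entries, are not counted on genes, so sequence shared between genes loses reads. In R 4.3.3, genes were filtered with filterByExpr of edgeR 4.0.16 at a minimum count of 10, scaled with TMM factors (0.992 to 1.02) and tested without further terms. The standard error is the size of a log2 fold change over the square root of its F. The fit was tested on simulated data. Alternatives used DESeq2 1.42.0 and limma 3.58.1.

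The 10 genes and the lists were chosen with earlier results of these data known. A marker of neurons outside the retina is not reported here. All 10 genes are named. Of each list, up to 3 called genes per direction with the largest change and a mean of at least 1 CPM are named, and those named beside them were chosen after their values were seen. Each library is a pool of retinas of several littermates, and whether the pools of a genotype came from separate litters is not given in the sources used here. The p-values thus measure the spread between these libraries, which may be technical and, with 2 per genotype, is known only roughly. Lengths and coordinates come from the GENCODE M21 annotation of GRCm38, the build mm10.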

Additional observations from a re-analysis of the deposited data

How the results depend on the processing

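The number of the 10 genes called lower was 7 under every alternative that kept both mutant libraries, namely DESeq2, library size alone, upper-quartile scaling, both other filters, an adjusted p of at most 0.05, glmTreat against 1.4-fold, and limma on the deposited normalized values. With each library left out in turn it was 7 to 8, the eighth being *Map1a* at -0.53 without mutant replicate 1. *Dclk2* and *Map4* were never called, and all 10 kept their direction. The median of the 10 genes lay between -0.99 and -0.70 with libraries left out. Among the list genes, glmTreat gave 15 lower and 1 higher in place of 24 and 3, and the number higher was 1 to 3 with libraries left out, the lowest without mutant replicate 1. Over all genes, glmTreat gave 743 lower and 1188 higher and limma on the deposited values 723 and 945, against 1268 and 2024. glmTreat asks for a fold significantly above 1.4, and for limma the cause was not tested. With the replicate number as a block, 7 of the 10 genes were called, with 1256 lower and 1970 higher over all genes, so the block changed no call of the 10. The replicate numbers share no stated litter or batch, and the correlation of replicate differences between the genotypes was -0.0025 over genes. Adding 0.5 read to each count left the direction of all 8 ratios, as did leaving out each library, an alternative chosen after seeing the data. With 2 libraries per genotype, a change near 1.4-fold, as for *Map1a* and *Dclk2*, cannot be placed firmly on either side of that limit. *Map6* and *Dclk1* passed glmTreat at an adjusted p of at most 0.2, although their 95% intervals include a 1.4-fold decrease.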
